A study of Rattus norvegicus with 84 samples.

Results

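The mitochondrial carriers of the Slc25 family are membrane proteins that move nucleotides, phosphate, amino acids, metabolites, cofactors and ions, most of them across the inner mitochondrial membrane. A typical carrier binds a substrate on one side of the membrane, changes shape and releases it on the other side, often in exchange for a second substrate. In neurons and astrocytes these proteins link the cytosol to the respiratory chain, to the recycling of the transmitter glutamate and to calcium signalling. Uncoupling proteins are a branch of the same family. The members were taken by symbol, as every gene named Slc25a followed by a number, together with the uncoupling proteins Ucp2 and Ucp3. This gave 45 members among 15999 genes listed in at least 1 of 3 subregion tables: 44 of 15374 genes in the dentate gyrus (DG), 45 of 15706 in CA3 and 44 of 15553 in CA1. Slc25a21, an oxodicarboxylate carrier, was listed in CA3 alone, and Ucp3 was listed in no subregion table and so was not analysed.

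The samples were male F344 rats, an inbred strain, at 12 months (middle-aged, 16 rats) and 5 months (young, 12 rats). Neither group carried a transgene or a stated treatment, and each rat gave 1 library from each of the DG, CA3 and CA1 of 1 hemisphere, 84 libraries in all. Polyadenylated RNA was sequenced from the dissected tissue, so neurons and glia were measured together. The title of the study ties the ages to spatial pattern separation, a memory ability, and the comparison of ages within subregions is the one its design names.

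Depth lay between 14.4 and 23.4 M reads per library (median 18.0 M). The carriers together took between 0.207% and 0.298% of a library's reads, with medians of 0.249% at 12 months and 0.275% at 5 months in the DG, 0.253% and 0.276% in CA3, and 0.240% and 0.253% in CA1. Transcripts encoded by the mitochondrial genome took a median of 7.57% at 12 months and 6.60% at 5 months in the DG, 8.51% and 7.76% in CA3, and 11.2% and 7.96% in CA1. The part of that share in the age differences was not tested. The subregion labels held in sums over the marker genes of each subregion's principal cells: the CA1 list summed to at least 30924 in every CA1 library and to at most 18547 in any CA3 or DG library. Marker genes were counted at the threshold used below for the carriers. Microglia markers were higher at 12 months in 8 of 11 genes in CA3, 4 of 11 in CA1 and 3 of 11 in the DG. None of the 11 passed as lower. Other lists moved in part. Oligodendrocyte precursors had 4 of 7 genes lower in the DG (1 higher), 2 of 7 in CA3 and 4 of 7 in CA1. Mural cells had 3, 2 and 2 of 7 lower, and Cspg4 is in both lists. Neurons had 3 of 9 lower in each subregion, with 3 higher in the DG and 1 each in CA3 and CA1. Oligodendrocytes had 3 of 9 higher in the DG, 1 higher and 1 lower in CA3, and 2 lower in CA1. Endothelial cells had 2 of 7 lower in the DG alone. Of all tested genes 18.5% passed as higher and 18.5% as lower in the DG, 10.9% and 10.8% in CA3, and 12.4% and 12.8% in CA1. Summed mural cell markers had medians of 2386 at 12 months and 3078 at 5 months in the DG, 2832 and 3230 in CA3, and 3181 and 3737 in CA1. The part of these cell types in the carriers' differences was not tested. The rat of 12-month replicate 10 stood apart, with microglia marker sums of 11774 in the DG, 32197 in CA3 and 44000 in CA1, against at most 8783, 12614 and 11710 in the other 27 libraries of those subregions. In the DG, 5-month replicates 3 and 6 and 12-month replicate 6 lay farthest from their group means over all genes. Animal numbers fell into 2 separate runs, the first with 10 rats at 12 months and 6 at 5 months, the second with 6 and 6. The labels do not say what the runs are, and values within each run are given where they bear on a result. In each run the numbers of one age do not mix with those of the other, so number block and age cannot be told apart.

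With age, carrier transcripts changed modestly, and more passed as lower than as higher in each subregion. In the DG 4 of 43 tested carriers were higher and 16 were lower at 12 months than at 5 months (adjusted p under 0.05 by limma, a linear model fitted over all genes), where 37.1% of all tested genes were called, 18.5% higher and 18.5% lower. In CA3 1 of 44 was higher and 10 were lower, beside 21.7% of all genes called (10.9% higher, 10.8% lower). In CA1 2 of 43 were higher and 7 were lower, beside 25.2% of all genes called (12.4% higher, 12.8% lower). Lower calls thus made up 37.2% of the tested carriers in the DG, 22.7% in CA3 and 16.3% in CA1, and higher calls 9.3%, 2.27% and 4.65%; in CA1 the lower share was near the background, and no share was tested against it. The median log2 difference over the carriers was -0.10 in the DG, -0.08 in CA3 and 0.04 in CA1, against medians of 0.01, 0.00 and 0.00 over all genes. In CA1 24 carriers had positive and 19 had negative differences, called or not. Differences are on the scale of log2(normalized count + 1), which understates the change of low genes.

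**Figure D1:**
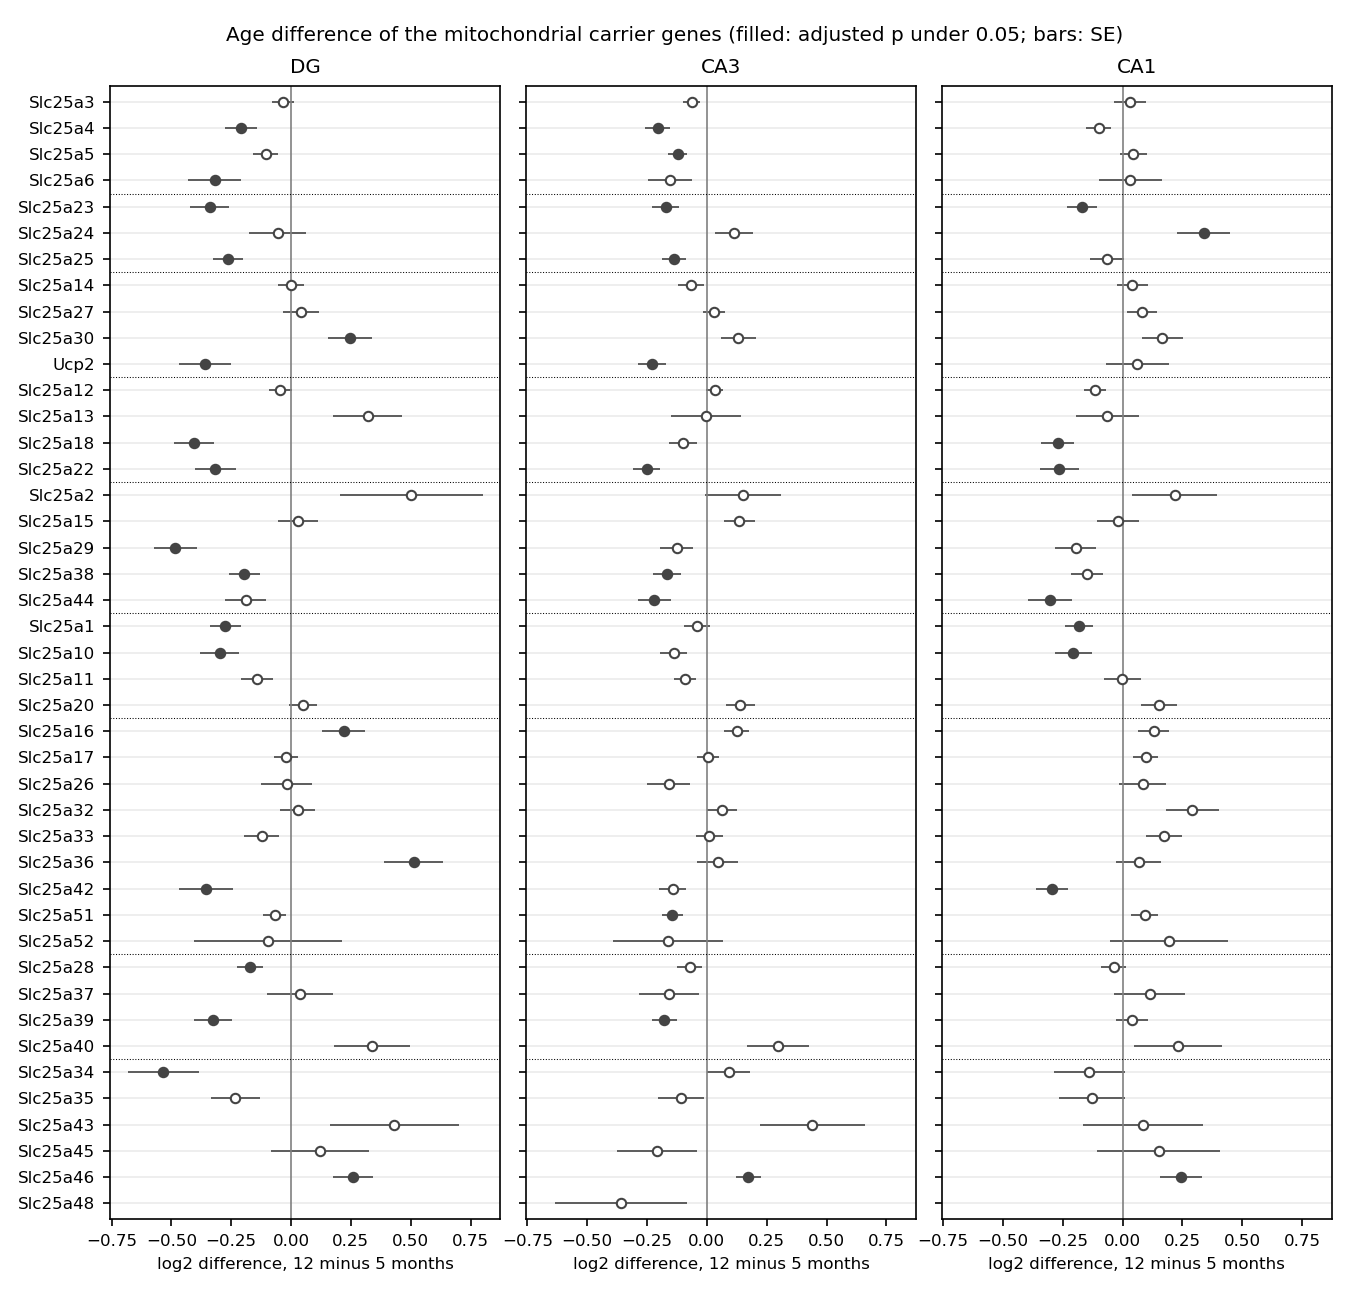
Log2 difference between 12-month (n = 16) and 5-month (n = 12) libraries for the tested carriers drawn (all but 1) in the DG, CA3 and CA1, with bars of 1 SE, filled points for adjusted p under 0.05, and dotted lines between roles (from the top: ADP/ATP and phosphate, ATP-Mg/phosphate, uncoupling protein branch, glutamate and aspartate, other amino acids, di- and tricarboxylates and acyl carnitine, cofactors and nucleotides, iron and glutathione, outer membrane or less well known). Filled points lie left of 0 for 15 carriers in the DG, 10 in CA3 and 7 in CA1, and right of 0 for 4, 1 and 2.

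Of 44 carriers tested in at least 1 subregion, 24 passed the threshold in at least 1, none of them in both directions, and 20 passed in none. Slc25a22 and Slc25a23 were lower in all 3 subregions, where 4.45% of all genes were. Slc25a46 was higher in all 3, where 4.24% of all genes were. Among the 43 carriers tested in every subregion, 12 were lower in 2 or more, where 12.3% of all genes were, and 1 was higher in 2 or more, where 11.1% of all genes were. Averaged over the 3 subregions of each rat, 8 carriers were higher and 17 were lower at 12 months, beside 50% of all genes called (25.4% higher, 24.6% lower). On the average the carriers' median log2 difference was -0.04, against 0.01 over all genes. In no carrier and no subregion did the ranges of the 2 ages separate, beside 0.0275% of tested genes with separate ranges in the DG, 0.047% in CA3 and 0.0204% in CA1. The tissue was not sorted, so fewer cells of a type and less RNA per cell cannot be told apart.

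The DG count depended on the fit. With the mean log2 levels of the CA3 and CA1 pyramidal cell markers added as covariates, a fit added after the data were seen, 1 carrier was higher and 3 were lower, beside 6.98% of all genes called. Those 4 were Slc25a36 (higher) and Slc25a18, Slc25a23 and Slc25a29 (lower). The CA1 list had negative differences in 5 of 5 genes in the DG (median -0.56) and 1 passed; of 4 measured CA3 markers none was higher and 3 were lower. Summed CA1 markers in the DG ran from 1916 to 12121 (median 5187) at 12 months and from 2482 to 16636 (median 6013) at 5 months. Summed CA3 markers had medians of 7348 at 12 months and 7626 at 5 months in the DG. Their medians were 13080 and 13108 in CA3, and 2585 and 2659 in CA1. The CA3 list was thus well expressed in the DG libraries, and what this covariate stands for there was not tested. With the markers of the other 2 subregions as covariates, all 11 carriers called in CA3 still passed and so did all 9 in CA1. Over all genes the share called in those fits was 22.8% in CA3 and 26.9% in CA1, against 21.7% and 25.2% without covariates. How many of all called genes kept their call is not given here.

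Split by run, none of 43 carriers passed in the DG of the first run (8 at unadjusted p under 0.05, limma), where 0.172% of all genes passed, and 4 higher and 18 lower passed in the second run, where 46.9% of all genes did. All 20 carriers called in the DG over all rats had the same direction in each run. Both runs had entered that call, so the shared direction is no separate support. Without the 3 farthest DG libraries, 3 carriers were higher and 17 were lower, beside 42.5% of all genes called.

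In CA3 the first run gave no higher carrier and 2 lower ones (4.83% of all genes called), and the second gave none higher (limma) and 6 lower (16.5%). Without the 3 farthest CA3 libraries 1 was higher and 5 were lower (16.2%). In CA1 the first run gave no call (12 at unadjusted p under 0.05, limma, 10 of them higher and 2 lower; 3.19% of all genes called), while the second gave 3 higher and 11 lower (33.8%). Without the 3 farthest CA1 libraries 3 were higher and 7 were lower (29.6%). For the average over subregions, run 1 gave 3 higher and 3 lower (18.4%) and run 2 gave 6 higher and 21 lower (58.1%). Leaving out every rat with a farthest library gave 7 higher and 17 lower on that average (48.3%). The 11 carriers called over all rats in CA3, the 9 in CA1 and the 25 on the average had the same direction in both runs. These carriers too had been picked on both runs together, which favours a shared direction.

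**Figure D2:**
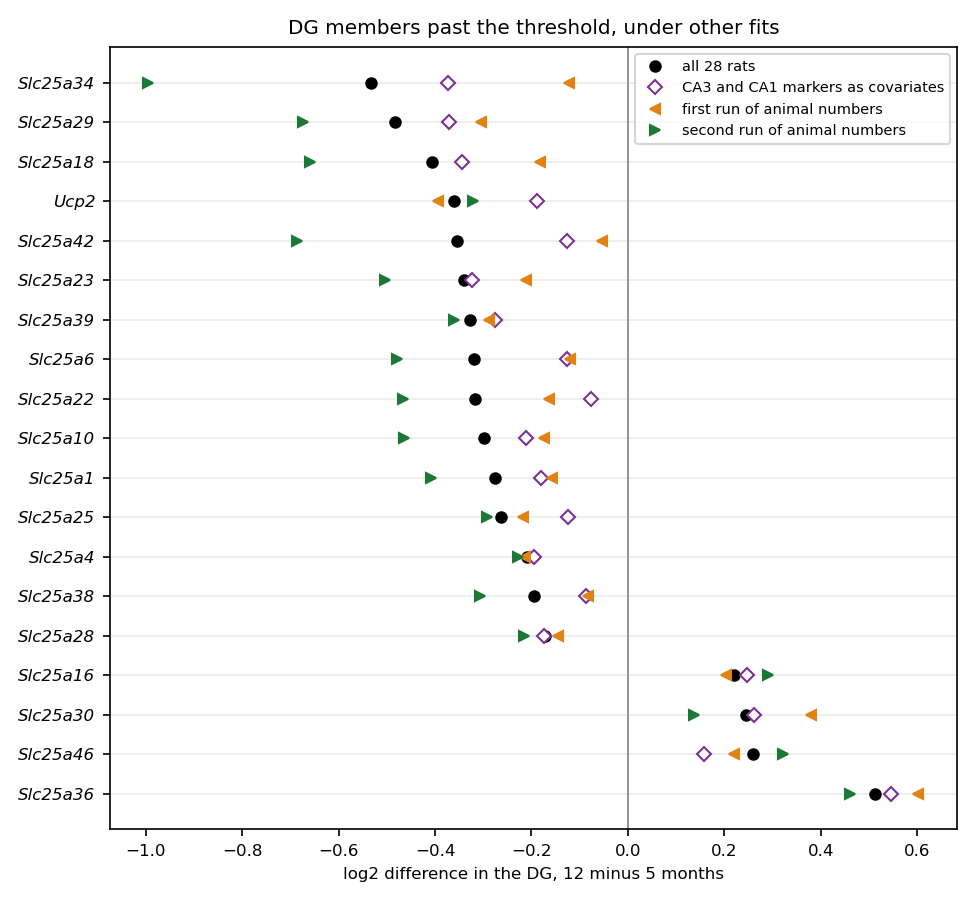
Log2 difference in the DG between 12 and 5 months for 19 of the 20 carriers past the threshold over all 28 rats (black circles), with CA3 and CA1 markers as covariates (open diamonds), and in the first (left triangles) and second (right triangles) run of animal numbers alone. Each carrier drawn keeps its side of 0 in all 4 fits, and the second run lies beyond the first for 16 of the 19. The carriers were picked on the rats of both runs together, which favours a shared side.

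Glutamate and aspartate carriers feed the malate-aspartate shuttle and glutamate oxidation. Slc25a22 is a mitochondrial glutamate carrier whose loss in humans causes an early epileptic encephalopathy. In CA3 its normalized counts ran from 5013 to 7695 (median 6200) at 12 months, against 6135 to 8802 (median 7544) at 5 months. The ranges overlapped, yet 14 of 16 middle-aged libraries lay below the young median. The log2 difference was -0.25 ± 0.06 (SE; adjusted p = 0.00286, limma). In the DG Slc25a22 ran from 3139 to 5635 (median 4401) at 12 months, against 3651 to 6593 (median 5635) at 5 months. All 16 middle-aged DG libraries lay below the young median, the highest of them only just, with a difference of -0.32 ± 0.08 (adjusted p = 0.00507, limma). This DG value was -0.08 with CA3 and CA1 markers as covariates and no longer passed. In CA1 counts ran from 2894 to 5784 (median 4419), against 4418 to 6250 (median 5258) at 5 months, a difference of -0.26 ± 0.08 (adjusted p = 0.0197, limma). By run the difference in the first and the second was -0.16 and -0.47 in the DG, -0.21 and -0.32 in CA3, and -0.22 and -0.35 in CA1.

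Slc25a18, the second glutamate carrier and one known from astrocytes, was lower in the DG and CA1. DG values ran from 508 to 809 (median 617) at 12 months, against 563 to 1127 (median 906) at 5 months. Every one of the 16 middle-aged libraries was below the young median, and the difference was -0.41 ± 0.08 (adjusted p = 0.000761, limma). In CA1 it ran from 543 to 869 (median 682), against 728 to 1001 (median 818) at 5 months, a difference of -0.27 ± 0.07 (adjusted p = 0.00637, limma). The CA3 difference of -0.10 did not pass (adjusted p = 0.22, limma). By run the difference of Slc25a18 in the first and second was -0.18 and -0.66 in the DG, and -0.30 and -0.24 in CA1. Of 10 astrocyte markers, 1 was higher and 1 was lower in the DG and 0 and 3 in CA1; their summed level in CA1 ran from 106960 to 148770 at 12 months and from 108800 to 157720 at 5 months, and its part in the result was not tested. The aspartate/glutamate carriers behaved differently: Slc25a12 (aralar, the main form in neurons) had differences of -0.04, 0.03 and -0.12 in the DG, CA3 and CA1, none of which passed. Slc25a13 (citrin) differed by 0.32 ± 0.14 in the DG (adjusted p = 0.0785, limma) and by 0.00 and -0.06 in CA3 and CA1.

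The ATP-Mg/phosphate carriers change the adenine nucleotide content of the mitochondrial matrix and are switched by calcium. Slc25a23 ran in the DG from 3790 to 5962 (median 4790) at 12 months, against 4413 to 8109 (median 6078) at 5 months. No middle-aged DG library reached the young median, and the difference was -0.34 ± 0.08 (adjusted p = 0.00243, limma). In CA3 it ran from 2564 to 3921 (median 3320), against 3066 to 4323 (median 3659) at 5 months, a difference of -0.17 ± 0.06 (adjusted p = 0.0266, limma). In CA1 it ran from 2935 to 4861 (median 3840), against 3643 to 5129 (median 4360) at 5 months, a difference of -0.17 ± 0.06 (adjusted p = 0.0483, limma). The CA1 call was near the threshold: of 28 fits without 1 rat, 18 lost it, and by run the difference was -0.03 and then -0.33. The CA3 call was lost without the 3 farthest CA3 libraries (-0.12, adjusted p = 0.0968, limma). Slc25a25 was lower in the DG (-0.26 ± 0.06, adjusted p = 0.00207, limma) and CA3 (-0.14 ± 0.05, adjusted p = 0.0416, limma). In CA3 Slc25a25 lost its call in 14 of 28 fits without 1 rat. Its sister Slc25a24 was instead higher in CA1, at 51.3 to 88.3 (median 70.6) at 12 months, against 34.4 to 73.5 (median 58.8) at 5 months. Of the middle-aged CA1 libraries 15 of 16 exceeded the young median, and the difference was 0.34 ± 0.11 (adjusted p = 0.0251, limma); without the 3 farthest CA1 libraries it was 0.25 (adjusted p = 0.0706, limma).

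**Figure D3:**
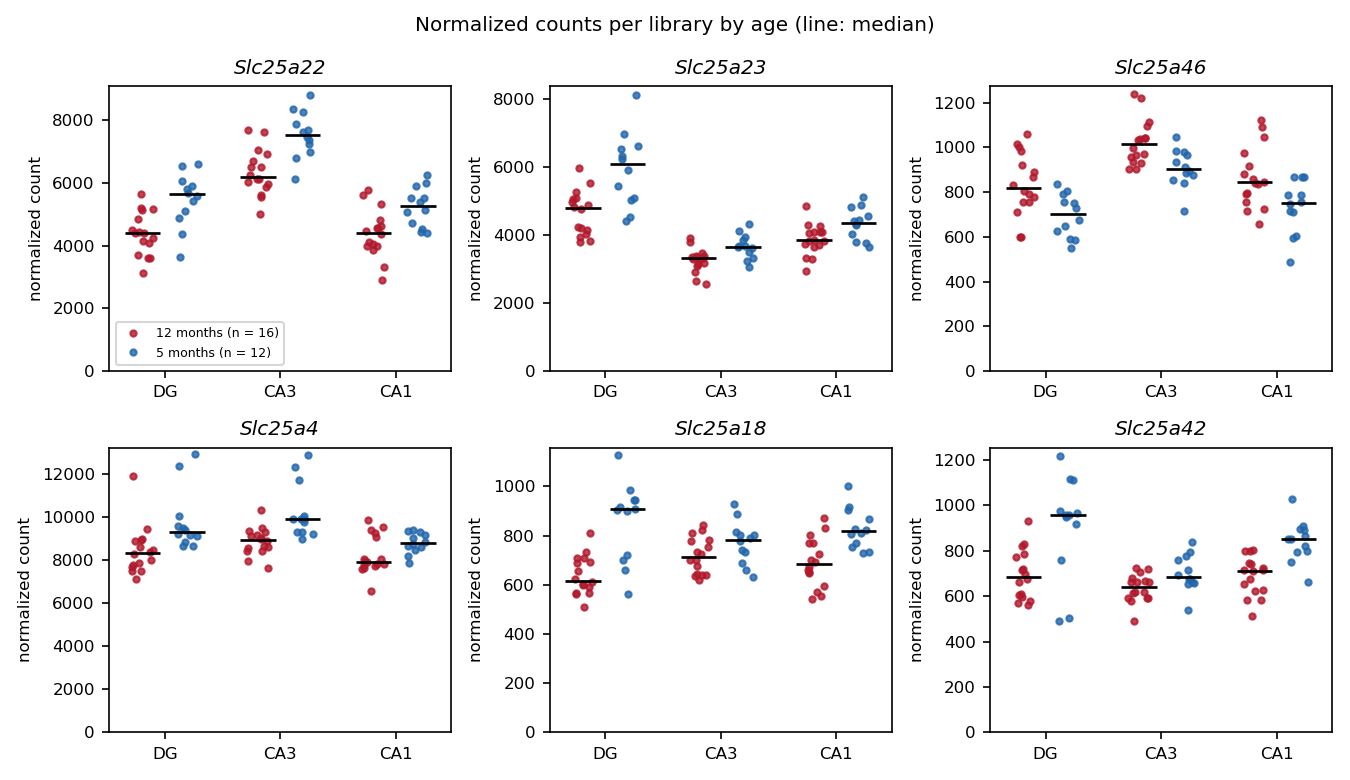
Normalized counts of 6 carriers in every library of the DG, CA3 and CA1, 12-month libraries (n = 16) left of 5-month libraries (n = 12), with a line at each median. Medians of Slc25a22 and Slc25a23 are lower and those of Slc25a46 higher at 12 months in all 3 subregions; all ranges overlap, and 2 young DG libraries of Slc25a42 lie far below the others, at 491 and 505.

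The 250 bases upstream of the RefSeq start (build GRCr8) are shown for Slc25a22 and Slc25a23, the pair of carriers lower in all 3 subregions. Capitals mark letters matched to GGGCGG (the SP1 box) or GCATGC (the core of the NRF1 site, a factor of mitochondrial genes), and TGACG (part of a cAMP response element) was also searched, all on both strands. The first lies on the minus strand at chr1:205965878-205966127 and the second on the minus strand at chr9:1985366-1985615.
Slc25a22: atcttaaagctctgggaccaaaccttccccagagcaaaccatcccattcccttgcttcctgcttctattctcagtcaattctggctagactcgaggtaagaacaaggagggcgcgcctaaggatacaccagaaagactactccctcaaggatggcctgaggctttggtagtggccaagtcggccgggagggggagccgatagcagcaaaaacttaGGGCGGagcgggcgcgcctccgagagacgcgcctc
Slc25a23: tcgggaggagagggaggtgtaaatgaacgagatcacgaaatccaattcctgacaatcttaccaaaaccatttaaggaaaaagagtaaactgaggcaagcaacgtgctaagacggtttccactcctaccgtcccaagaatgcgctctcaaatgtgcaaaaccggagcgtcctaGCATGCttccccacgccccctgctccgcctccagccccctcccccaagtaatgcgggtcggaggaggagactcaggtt
Of the 45 carriers 37 matched an entry. GGGCGG was found in 21 of the 37 (56.8%), against 32.4% of 27457 promoters of the same length, TGACG in 10 (27.0%, against 19.0%) and GCATGC in 4 (10.8%, against 6.33%). The carriers' windows had a median of 58.8% G and C, against 52.0% over all promoters. Matches to different motifs overlapped in 0 of the 37 windows, and a match describes letters only.

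ADP/ATP and phosphate carriers supply the ATP synthase with its substrates and export the product. Slc25a4, an ADP/ATP carrier, ran in CA3 from 7638 to 10341 (median 8952) at 12 months, against 8999 to 12886 (median 9928) at 5 months. Of 16 middle-aged CA3 libraries 15 lay below the young median, and the difference was -0.21 ± 0.05 (adjusted p = 0.00565, limma). Its DG values ran from 7148 to 11906 (median 8330), against 8645 to 12928 (median 9321) at 5 months, a difference of -0.21 ± 0.07 (adjusted p = 0.0165, limma). The DG highs of 11906, 12928 and 12404 belonged to the 3 farthest DG libraries (12-month replicate 6 and 5-month replicates 6 and 3), and without them the difference was -0.17 (adjusted p = 0.00433, limma). The CA1 difference was -0.10 ± 0.05 and did not pass (adjusted p = 0.152, limma). Slc25a4 differed by -0.21 and -0.23 in the DG of the first and second run, and by -0.29 and -0.14 in CA3.

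Slc25a5, another ADP/ATP carrier, passed in CA3 alone (-0.12 ± 0.04, adjusted p = 0.0312, limma), with 4120 at the 12-month median and 4460 at the 5-month median; in the DG and CA1 it differed by -0.11 and 0.05. Slc25a6 passed in the DG (-0.32 ± 0.11, adjusted p = 0.026, limma), at 57.8 to 116 (median 69.4) at 12 months and 67.8 to 131 (median 89.7) at 5 months. The phosphate carrier Slc25a3 passed nowhere, with differences of -0.03, -0.06 and 0.03 in the DG, CA3 and CA1. RefSeq names 9 pseudogenes of Slc25a5, 8 of Slc25a39, 2 of Slc25a3 and 2 of Slc25a6, and 1 each for 8 other carriers, Slc25a4 among them, so reads of these 12 genes may be shared with copies and their values are uncertain.

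Uncoupling proteins let protons or metabolites leak across the inner membrane, and Ucp2 is the best studied of them in brain and in immune cells. Ucp2 ran in CA3 from 2224 to 3462 (median 2814) at 12 months, against 2851 to 3821 (median 3213) at 5 months. Of the middle-aged CA3 libraries 15 of 16 lay below the young median, a difference of -0.23 ± 0.06 (adjusted p = 0.00709, limma). In the DG it ran from 1305 to 2270 (median 1737), against 1446 to 3560 (median 2185) at 5 months, a difference of -0.36 ± 0.11 (adjusted p = 0.0103, limma). The DG value was -0.19 with CA3 and CA1 markers as covariates and did not pass. The first and second run gave -0.39 and -0.32 in the DG and -0.21 and -0.28 in CA3.

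In CA1 Ucp2 differed by 0.06 ± 0.13 (adjusted p = 0.76, limma), from 640 to 2159 (median 923) at 12 months and from 771 to 1124 (median 905) at 5 months. A pair of middle-aged CA1 libraries stood far above the other 26, which ended at 1144: replicate 10 at 2159 and replicate 5 at 1836. Replicate 10 is the rat with the high microglia markers, 44000 in CA1. Replicate 5 had the highest summed CA3 pyramidal cell markers of CA1, 6210, against 2194 to 3815 in the 26 others, and replicate 10 had 2001. The part of either in the Ucp2 value was not tested. Of the other members of the branch, Slc25a30 was higher in the DG (0.25 ± 0.09, adjusted p = 0.0335, limma), and this call was lost without the 3 farthest libraries (0.18, adjusted p = 0.089, limma). Slc25a14 (also called UCP5) and Slc25a27 (also called UCP4), both known from neurons, lay between -0.07 and 0.08 in every subregion and passed in none.

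**Figure D4:**
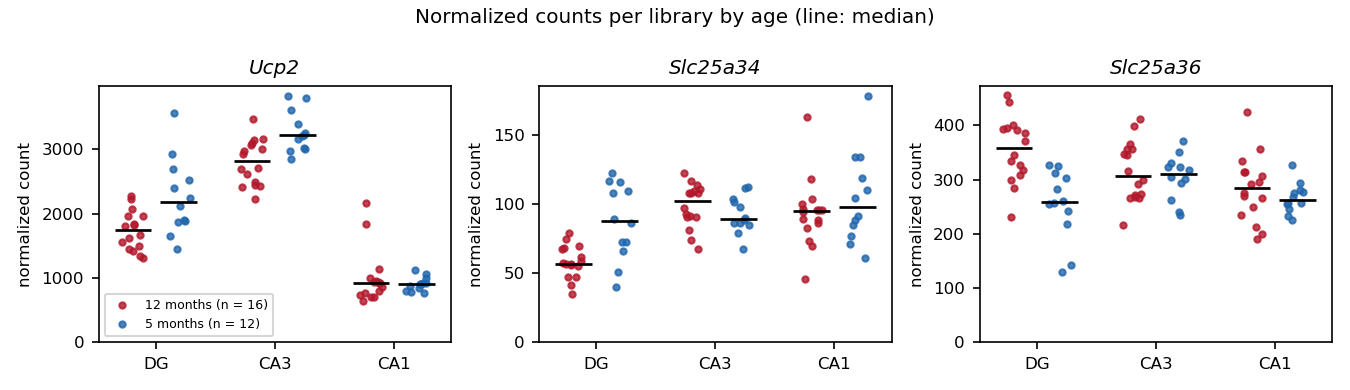
Normalized counts of Ucp2, Slc25a34 and Slc25a36 in every library, 12-month (n = 16) left of 5-month (n = 12) in each subregion, with a line at each median. The middle-aged CA1 libraries at 1836 and 2159 stand above the other Ucp2 values of CA1, and for Slc25a34 and Slc25a36 the medians of the ages lie farther apart in the DG than in CA3 or CA1.

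Carriers of other amino acids were lower where they passed in a single subregion. Slc25a29, a carrier of basic amino acids, ran in the DG from 304 to 575 (median 399) at 12 months, against 424 to 720 (median 550) at 5 months. Only 1 of 16 middle-aged DG libraries reached above the young median, and the difference of -0.48 ± 0.09 (adjusted p = 0.000403, limma) had the smallest p of any carrier in the DG. It did not pass in CA3 (-0.13) or CA1 (-0.20), and its difference between the DG and CA3 missed the threshold (-0.36 ± 0.10, adjusted p = 0.0556, limma). By run the DG difference of Slc25a29 was -0.31 in the first and -0.67 in the second. Slc25a44, known from brown fat as a carrier of branched-chain amino acids, was lower in CA1 and CA3. In CA1 it ran from 334 to 635 (median 424) at 12 months, against 346 to 728 (median 543) at 5 months, a difference of -0.30 ± 0.09 (adjusted p = 0.0168, limma). In CA3 the difference was -0.22 ± 0.07 (adjusted p = 0.0207, limma), and without the 3 farthest libraries it was -0.19 (adjusted p = 0.0696, limma). In the first and second run Slc25a44 differed by -0.18 and -0.47 in CA1, and by -0.08 and -0.43 in CA3. Slc25a38, a glycine carrier needed for heme synthesis, was lower in the DG (-0.20) and CA3 (-0.17). Its CA3 call was lost in 10 of 28 fits without 1 rat, and by run its CA3 difference was -0.08 and then -0.31. The ornithine carriers Slc25a15 and Slc25a2 passed in no single subregion. On the average over subregions Slc25a2 was higher (0.29 ± 0.12, adjusted p = 0.0447, limma), a call that 15 of 28 fits without 1 rat lost. By run that difference was 0.47 in the first and 0.09 in the second.

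Among carriers of di- and tricarboxylates, the citrate carrier Slc25a1 and the dicarboxylate carrier Slc25a10 were lower in the DG and CA1. Slc25a1 ran in the DG from 412 to 645 (median 476) at 12 months, against 453 to 717 (median 603) at 5 months, and 15 of 16 middle-aged libraries lay below the young median (-0.27 ± 0.07, adjusted p = 0.00208, limma). In CA1 it ran from 456 to 593 (median 498), against 462 to 678 (median 558) at 5 months (-0.18 ± 0.06, adjusted p = 0.0197, limma). Slc25a10 ran in the DG from 366 to 675 (median 467) at 12 months and from 462 to 748 (median 574) at 5 months (-0.30 ± 0.08, adjusted p = 0.00546, limma). Its CA1 difference of -0.21 (adjusted p = 0.0445, limma) did not pass in 16 of 28 fits without 1 rat. The oxoglutarate carrier Slc25a11, a partner of the malate-aspartate shuttle, and the carnitine-acylcarnitine carrier Slc25a20 passed in no single subregion; on the average over subregions Slc25a20 was higher (0.11 ± 0.04, adjusted p = 0.0263, limma).

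Cofactor and nucleotide carriers went both ways. Slc25a42, a carrier of coenzyme A, was lower in CA1, at 513 to 804 (median 711) at 12 months, against 664 to 1026 (median 850) at 5 months. All 16 middle-aged CA1 libraries lay below the young median (-0.30 ± 0.07, adjusted p = 0.00295, limma). In the DG it ran from 562 to 929 (median 685) at 12 months, against 491 to 1218 (median 958) at 5 months (-0.35 ± 0.11, adjusted p = 0.0152, limma). The young lows of 491 and 505 in the DG were 5-month replicates 3 and 6; without the 3 farthest libraries the difference was -0.54, and by run it was -0.05 in the first and -0.69 in the second. Slc25a36, a pyrimidine nucleotide carrier, was higher in the DG, at 232 to 456 (median 358) at 12 months, against 129 to 326 (median 259) at 5 months. Of the middle-aged DG libraries 15 of 16 exceeded the young median (0.51 ± 0.12, adjusted p = 0.00216, limma). The lows of 129 and 142 at 5 months were replicates 6 and 3, and without the 3 farthest libraries the difference was 0.38 (adjusted p = 0.00069, limma). In CA3 and CA1 Slc25a36 differed by 0.05 and 0.07. Its relative Slc25a33 passed nowhere, at -0.12, 0.01 and 0.17 in the DG, CA3 and CA1. The NAD carrier Slc25a51 passed in CA3 (-0.14 ± 0.04, adjusted p = 0.0195, limma), where 13 of 16 middle-aged libraries lay below the young median; it differed by -0.07 in the DG and 0.09 in CA1. Slc25a16 was higher in the DG (0.22, adjusted p = 0.05, limma), a call that 19 of 28 fits without 1 rat lost.

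Of the iron and glutathione carriers, Slc25a39, which brings glutathione into mitochondria, was lower in the DG and CA3. The DG counts of Slc25a39 ran from 577 to 1102 (median 711) at 12 months, against 719 to 1150 (median 884) at 5 months, with 15 of 16 middle-aged libraries below the young median (-0.33 ± 0.08, adjusted p = 0.0023, limma). In CA3 it ran from 773 to 996 (median 864), against 853 to 1239 (median 965) at 5 months (-0.18 ± 0.05, adjusted p = 0.0144, limma). The CA1 difference was 0.04 ± 0.07. Its paralogue Slc25a40 passed in no single subregion, with differences of 0.34, 0.30 and 0.23, and was higher on the average (0.29 ± 0.09, adjusted p = 0.00625, limma). Mitoferrins import iron; Slc25a28 was lower in the DG (-0.17 ± 0.05, adjusted p = 0.0146, limma) and Slc25a37 passed nowhere.

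Slc25a46 differs from most of the family in sitting in the outer membrane, where it acts in mitochondrial shape and fusion, and its mutation in humans causes optic atrophy with neuropathy. In CA3 it ran from 904 to 1237 (median 1014) at 12 months, against 715 to 1048 (median 902) at 5 months, and all 16 middle-aged libraries exceeded the young median (0.17 ± 0.05, adjusted p = 0.0195, limma). DG counts ran from 598 to 1058 (median 817), against 549 to 834 (median 701) at 5 months (0.26 ± 0.08, adjusted p = 0.0163, limma). In CA1 it ran from 656 to 1122 (median 844), against 489 to 868 (median 751) at 5 months (0.24 ± 0.09, adjusted p = 0.0365, limma). Of 28 fits without 1 rat, 8 lost the CA1 call, and the DG call was lost with CA3 and CA1 markers as covariates (0.16, adjusted p = 0.27, limma). By run the difference in the first and second was 0.22 and 0.32 in the DG, 0.12 and 0.26 in CA3, and 0.32 and 0.23 in CA1.

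Whether the age difference itself differed between subregions was tested within rats. Between the DG and CA3 1 of 43 carriers passed, beside 2.76% of all genes. That carrier was Slc25a34, whose substrate is not well known. In the DG it ran from 35.3 to 79.2 (median 57.1) at 12 months, against 40.2 to 123 (median 88.0) at 5 months, and no middle-aged library exceeded the young median (-0.53 ± 0.15, adjusted p = 0.00639, limma). In CA3 it ran from 67.9 to 123 (median 103), against 68.0 to 113 (median 89.2) at 5 months (0.09 ± 0.09). The age difference in the DG minus that in CA3 was -0.63 ± 0.17 (adjusted p = 0.0448, limma), a call that 20 of 28 fits without 1 rat lost. By run it was -0.17 in the first and -1.16 in the second. Between the DG and CA1 no carrier passed (limma; 11 at unadjusted p under 0.05), beside 0.609% of all genes, and between CA3 and CA1 none passed either (limma; 4 at unadjusted p under 0.05), beside 0% of all genes. A carrier that passed in one subregion and not in another was therefore not shown to differ between them, Slc25a34 apart.

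Levels were set across subregions only as a description, because each subregion's table had been normalized separately. Each library was expressed as reads per M (1 M being the sum over genes listed in all 3 tables). Most carriers were similar: the ratio of the highest to the lowest subregion median had a median of 1.18 over 43 carriers, against 1.26 over 14291 genes. The highest median fell in the DG for 19 of the 43 carriers, in CA3 for 13 and in CA1 for 11. These shares of 44.2%, 30.2% and 25.6% lay near those of all genes, 39.6%, 32.6% and 27.8%. Ucp2 differed most, with a median of 108 reads per M in the DG (75.7 to 172), 162 in CA3 (123 to 203) and 51.6 in CA1 (36.7 to 126). CA3 exceeded CA1 in 28 of 28 rats, and the DG exceeded CA1 in 26. Slc25a13 had medians of 1.53 in the DG, 4.51 in CA3 and 2.70 in CA1, and the DG was the lowest in 28 of 28 rats.

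The iron carrier Slc25a28 was highest in the DG in 28 of 28 rats, at 58.0 reads per M (47.2 to 71.5), against 34.1 in CA3 (29.0 to 42.5) and 44.2 in CA1 (37.2 to 49.9). It was the only carrier with 1 subregion highest in every rat, a pattern of 6.52% of all genes. Slc25a23 was higher in the DG (median 291) than in CA3 (182) in 28 of 28 rats and than in CA1 (231) in 27. Slc25a22 was highest in CA3 (370, against 282 in the DG and 262 in CA1), above the DG in 27 rats and above CA1 in 26. The DG and CA1 levels of Slc25a22 were not separated, with the DG higher in 17 of 28. Slc25a27 had the same order, at 56.3 in CA3, 47.5 in the DG and 41.2 in CA1. Slc25a45 and Slc25a48 also had large ratios, 1.76 and 1.94, but at medians of at most 1.42 and 0.433 reads per M, where few reads lie behind a value. Slc25a48 passed the filter on low values in CA3 alone, and Slc25a21, with medians of 4.54 normalized counts at 12 months and 4.43 at 5 months, did not pass it.

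**Figure D5:**
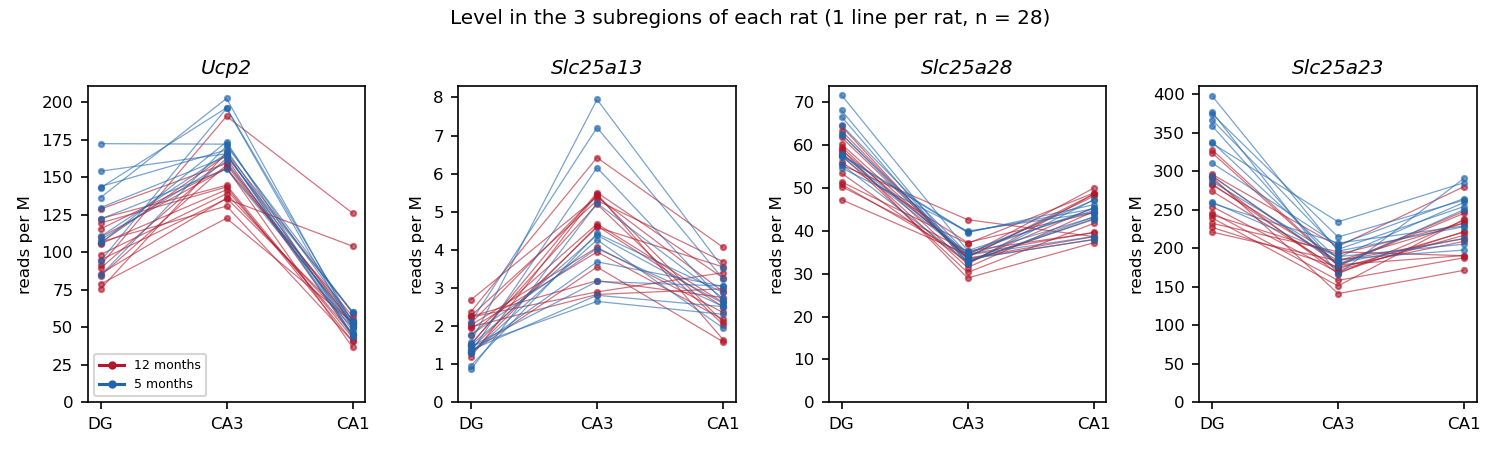
Reads per M of Ucp2, Slc25a13, Slc25a28 and Slc25a23 in the DG, CA3 and CA1, with 1 line per rat coloured by age (12 months, n = 16; 5 months, n = 12). Ucp2 peaks in CA3 and is lowest in CA1, with a pair of 12-month rats raised in CA1; Slc25a13 is lowest in the DG, and Slc25a28 and Slc25a23 are highest there.

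Genes that serve the carriers were described from lists chosen with earlier results known, on the average over subregions, where 50% of all genes passed. Of 17 genes of the import route for carriers, 7 were higher and 5 were lower, with Tomm20, an outer membrane receptor, at 0.24 and Agk, a kinase that also belongs to the carrier insertion complex, at -0.17. Presequence import had 5 higher and 3 lower of 13. The mitochondrial calcium uniporter list had 3 higher and none lower of 9, with the gatekeeper Micu3 at 0.32 and Micu2 at 0.13. Creatine kinase and adenylate kinase genes, which pass on the ATP that carriers export, had 0 higher and 2 lower of 6 tested, namely Ckb (-0.26) and mitochondrial Ckmt1 (-0.20).

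Shuttle enzymes had 1 higher and 1 lower of 7, Mdh1 of the cytosol at 0.14 and Mdh2 of the matrix at -0.08. Citric acid cycle enzymes had 3 higher and 5 lower of 17, with Dld at 0.33 and pyruvate carboxylase Pc at -0.19. Mitochondrial ABC transporters had 3 higher and 4 lower of 7, with Abcb8 at -0.28. Outer membrane channels and carrier homologues had 3 higher and 5 lower of 8; Mtch1, a distant relative of the carriers, was at -0.23. Pyruvate carriers and sideroflexins had 3 higher and 1 lower of 7, with Mpc2 at 0.25 and Sfxn5 at -0.22. Regulators of mitochondrial biogenesis had 6 higher and 7 lower of 14, with Gabpa at 0.41 and Esrra at -0.31. The list medians lay between -0.13 and 0.09, against 0.01 over all genes.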

How the data were processed

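RNA from the DG, CA3 and CA1 of 28 rats was analysed. Per the submitters' processing notes the genome build was rn6 and the tools were DESeq2 3.5, STAR 2.5.3a and Partek; the sources used here give no roles, settings, annotation or strand for them, so overlapping genes cannot be told apart. The deposited values, a signal called normalized counts, are whole reads divided by 1 size factor per library in a table per subregion: undoing it gave whole reads (within 0.1) for 100% of values up to 1000 reads. The labels name ERCC spike-ins, of which the tables hold 0. In CA3 1 column names its animal without the subregion and was taken as that animal's CA3 library.

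Values were tested as log2(value + 1) with limma 3.58.1 (R 4.3.3; moderated, trended variance, 2-sided, Benjamini-Hochberg over all tested genes, threshold 0.05) on genes that reached a value of 10 in 12 or more of the 28 libraries. The average and the differences between subregions were taken within rats, which pairs the libraries by animal number. The recovered reads were also tested with edgeR 4.0.16 and DESeq2 1.42.0. No pair of libraries agreed within sampling noise. The steps were also tried on simulated data drawn separately per subregion, with no rat or run effects, and no result here rests on that. Carriers named in the text are those with the smallest p in each comparison, the largest ratios between subregions and a fixed set; the others were named after their values were seen. For 1 carrier no values are reported here, though the counts include it. Members and lists were chosen with earlier results of these data known. Each rat is 1 replicate, and depth per library is given with the results.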

Additional observations from a re-analysis of the deposited data

Results flagged for a closer look

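The age difference of Slc25a34 differed between the DG and CA3 by the within-rat test (-0.625 on the log2 scale, DG minus CA3; adjusted p = 0.0448, limma). It was the only 1 of 43 carriers to pass, a share (2.33%) near the 2.76% of all genes that passed. In the DG its median was 57.1 normalized counts at 12 months and 88.0 at 5 months; in CA3 it was 103 at 12 months and 89.2 at 5 months. The value was -1.16 in the second run of animal numbers and -0.17 in the first, and it passed in 8 of 28 fits that left out 1 rat.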

How the results depend on the processing

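Leaving out each of the 28 rats in turn, the number of carriers called lay between 18 and 24 in the DG, 7 and 13 in CA3, 6 and 11 in CA1, 20 and 25 on the average, 0 and 3 between the DG and CA3, 0 and 1 between the DG and CA1, and stayed at 0 between CA3 and CA1. Without 5-month replicate 2 it was 7 in CA3, against 11 with all rats. Of the called carriers, 17 of 20 in the DG, 7 of 11 in CA3, 6 of 9 in CA1, 20 of 25 on the average and 0 of 1 between the DG and CA3 passed in all of these fits, and none changed direction. The first run of animal numbers alone gave 0 calls in the DG (8 at unadjusted p under 0.05, limma), beside 0.172% of all genes. It gave 2 in CA3, beside 4.83%, and 0 in CA1 (12 at unadjusted p under 0.05, limma), beside 3.19%. On the average it gave 6, beside 18.4%. Between the DG and CA3 it gave 0, beside 0.007%, and between CA3 and CA1 it gave 1, beside 0.434%. The second run alone gave 6 in CA3 and 14 in CA1, beside 16.5% and 33.8% of all genes. Between the DG and CA3 that run gave 3, beside 5.41%, and between the DG and CA1 it gave 1, beside 0.133%. Without the 3 farthest libraries 6 passed in CA3, and with the other subregions' markers as covariates 4 passed in the DG; both were chosen after seeing the data. With the run as a covariate 2 passed between the DG and CA3, beside 3.13% of all genes. Between the DG and CA1 that fit gave 1, beside 1.86%. A minimum of 50 gave 2 between the DG and CA3. The cause of these moves was not tested. Pseudocounts of 0.5 and 5, no filter, TMM factors, robust moderation, edgeR (19, 11 and 9 in the DG, CA3 and CA1) and DESeq2 (20, 11 and 12) kept the subregion counts within 1.5 times and reversed no call. With the rat as a replicate block over all 84 libraries (correlation 0.107), 22 passed on the average, 7 higher and 15 lower, against 25. For the minimum of 50, edgeR, DESeq2, the replicate block and the fits without 1 rat, shares of all genes are not given here. Those counts describe the fits and are not read as particular to the carriers. Depth limits carriers with subregion medians below 1 read per M, Slc25a2, Slc25a48 and Slc25a52 among them.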
